A study of Mus musculus with 5 samples.

Results

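The genes described here are 49 genes of the cell division cycle, chosen by symbol and divided by the phase in which their products act. The replication genes number 22: regulators of S-phase entry, the factors that license and open replication origins, and the enzymes of DNA and nucleotide synthesis. The mitosis genes number 27: kinases and cyclins of mitotic entry, motors and other spindle or chromosome proteins, and proteins of centromeres, the spindle checkpoint and mitotic exit. Of these, 48 were measured, out of 18193 genes with a named probe set on the array. The mitotic cyclin gene Ccnb1 had no probe set under its symbol in the annotation used here and is not analysed here.

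A dividing cell copies its DNA in S phase and separates the copies in mitosis, and the genes for each step are transcribed mainly shortly before they are needed. E2F factors drive the replication genes from late G1 onward. The DREAM complex holds many mitosis genes down in resting cells, through a promoter element called CHR, and B-MYB and FOXM1 activate them in G2. In bone marrow, early B-cell precursors divide rapidly between their steps of antigen receptor gene rearrangement, whereas most cells of adult lung are not cycling.

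Total RNA from B220+ bone marrow cells was hybridised to Affymetrix whole-genome mouse expression arrays. B220 is a surface form of CD45 carried by developing B cells, and the cells were enriched with magnetic beads. KA/KA mice (3 arrays) carry on both alleles a knock-in that makes IKKα, an NF-κB pathway kinase, catalytically dead. WT mice (2 arrays) are their littermates. All were on the FVB background, 4 weeks old and untreated, and by the series text the arrays compare these genotypes. It is not stated whether RNA of several mice was pooled for an array, so p-values measure only the spread between these arrays, which may be technical. Values are log2(signal + 16), where a signal of 0 would read 4 and changes of dim genes are understated. A fold is given on that same scale.

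The arrays formed 2 sets, separated here by the signal of 24 poly-A control probe sets that carry no mouse RNA. The pair KA/KA 1 and WT 1 had a median control signal of 11897 and 7305, and KA/KA 2, KA/KA 3 and WT 2 had 136, 249 and 46.9. The labelled cell type fitted the pair better than the other arrays. Summed over 11 B lineage genes, the signal was 83572 and 105230 on the pair and 11805 to 18806 on the others. The pair was not B lineage alone. Summed over 8 neutrophil precursor genes, the signal was 94892 and 147309 on the pair and 4385 to 40704 on the others. Which of these cells the members' signal came from was not tested. Rag1, which cuts DNA for antigen receptor rearrangement, read 12.80 and 12.79 on the pair and 4.09, 4.09 and 4.10 on the other arrays. Summed over 12 lung epithelial genes, the signal was 1077 and 1288 on the pair and 181752, 206523 and 134706 on the others. The sets are called marrow-like and lung-like below. They are not groups of the labels, each holds both genotypes, and differences between them are described without a p-value. Values are listed for KA/KA 1 and WT 1, then for KA/KA 2, KA/KA 3 and WT 2.

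RefSeq (GRCm38.p6) gave a promoter entry for 40 of the 49 genes. Promoters are shown for the 3 members of largest set difference in each phase among those with an entry. Ccne2, with a larger difference than Rrm2, is named only. The 250 bases before the annotated start are printed 5′ to 3′ on the gene's strand. Capitals mark matches, on either strand, to an E2F word (TTTCCCGC, TTTCGCGC, TTTGCCGC or TTTGGCGC), to the CHR word TTTGAA, or to the CCAAT box. No printed match overlaps another. The replication genes were Uhrf1, which keeps DNA methylation through replication and has 2 annotated starts, the S-phase repressor E2f8, and Rrm2, a subunit of ribonucleotide reductase:
Uhrf1, upstream start (chr17:56303087-56303336, plus strand): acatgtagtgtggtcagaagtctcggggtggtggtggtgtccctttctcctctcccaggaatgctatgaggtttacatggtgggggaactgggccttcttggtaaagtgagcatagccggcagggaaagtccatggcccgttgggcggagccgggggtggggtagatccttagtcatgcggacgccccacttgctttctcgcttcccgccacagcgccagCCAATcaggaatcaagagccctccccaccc
Uhrf1, downstream start (chr17:56304063-56304312, plus strand): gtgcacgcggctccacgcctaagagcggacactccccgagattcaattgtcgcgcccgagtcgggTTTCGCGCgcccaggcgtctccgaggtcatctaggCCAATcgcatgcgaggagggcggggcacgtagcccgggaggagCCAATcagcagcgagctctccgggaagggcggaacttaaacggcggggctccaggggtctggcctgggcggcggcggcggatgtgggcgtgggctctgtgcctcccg
E2f8 (chr7:48881597-48881846, minus strand): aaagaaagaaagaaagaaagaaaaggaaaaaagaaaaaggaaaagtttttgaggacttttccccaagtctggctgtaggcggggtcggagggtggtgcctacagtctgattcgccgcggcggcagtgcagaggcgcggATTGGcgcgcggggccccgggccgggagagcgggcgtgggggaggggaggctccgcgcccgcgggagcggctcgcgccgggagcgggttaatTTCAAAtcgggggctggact
Rrm2 (chr12:24708004-24708253, plus strand): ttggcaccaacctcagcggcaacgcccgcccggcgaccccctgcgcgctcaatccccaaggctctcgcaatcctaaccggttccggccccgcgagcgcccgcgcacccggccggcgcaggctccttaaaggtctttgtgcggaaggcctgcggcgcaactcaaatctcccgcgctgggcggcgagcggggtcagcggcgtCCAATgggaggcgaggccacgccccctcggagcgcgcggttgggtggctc
The mitosis genes were Kif11, the motor that pushes spindle poles apart, Birc5 (survivin), a subunit of the chromosomal passenger complex, and Cdk1, the mitotic kinase:
Kif11 (chr19:37376132-37376381, plus strand): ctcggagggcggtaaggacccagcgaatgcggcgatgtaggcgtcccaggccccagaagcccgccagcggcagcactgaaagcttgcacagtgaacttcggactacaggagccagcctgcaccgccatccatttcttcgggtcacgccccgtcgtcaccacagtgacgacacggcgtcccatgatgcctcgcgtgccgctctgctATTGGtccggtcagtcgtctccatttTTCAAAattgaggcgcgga
Birc5 (chr11:117848987-117849236, plus strand): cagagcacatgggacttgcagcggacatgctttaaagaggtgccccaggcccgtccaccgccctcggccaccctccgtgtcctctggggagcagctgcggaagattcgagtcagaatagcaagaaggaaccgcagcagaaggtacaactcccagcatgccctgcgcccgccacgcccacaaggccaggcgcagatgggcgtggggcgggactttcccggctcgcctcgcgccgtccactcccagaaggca
Cdk1 (chr10:69352913-69353162, minus strand): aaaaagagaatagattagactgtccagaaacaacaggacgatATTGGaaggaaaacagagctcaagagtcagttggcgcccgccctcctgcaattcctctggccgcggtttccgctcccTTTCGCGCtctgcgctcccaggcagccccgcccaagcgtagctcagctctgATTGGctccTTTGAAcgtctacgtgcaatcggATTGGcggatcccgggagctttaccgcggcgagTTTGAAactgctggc

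The E2F word TTTCGCGC lay 185 bases before the downstream start of Uhrf1 and 131 bases before that of Cdk1. CHR words began 71 and 15 bases before the Cdk1 start, 19 before that of Kif11 and 20 before that of E2f8. The printed window of Birc5 held none of these words, and that of Rrm2 a CCAAT box alone.

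Over all members with an entry, in windows that reach 50 bases past the start, the phases differed in the words they held, as a description without a test. A CHR word was found in 16 of 22 mitosis promoters (72.7%) and in 3 of 18 replication promoters (16.7%), beside 20.2% of all 27025 promoters. An E2F word was found in 7 of 18 replication promoters (38.9%) and in 1 of 22 mitosis promoters (4.55%), beside 2.60% of all. Of the 7 replication promoters, 6 belonged to the origin licensing and helicase genes. CCAAT boxes were common in both phases, with 18 of 22 (81.8%) and 11 of 18 (61.1%), beside 41.1% of all. When only the 250 bases before the start were searched, CHR words remained in 9 of 22 mitosis promoters (40.9%, beside 18.3% of all), and E2F words in 5 of 18 replication promoters (27.8%, beside 2.16%). These matches describe letters, not bound sites.

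All 48 measured members were higher on the marrow-like pair than on the lung-like arrays, and for none did the sets overlap. The background is 30.5% of the 11392 genes tested. At least 4-fold higher were 45 of 48, against a background of 4.53%. The median difference was 3.72, or 13.2-fold, and the median over all genes tested was -0.05. In RNA of a mixed sample, fewer dividing cells and less RNA per cell cannot be told apart.

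**Figure D1:**
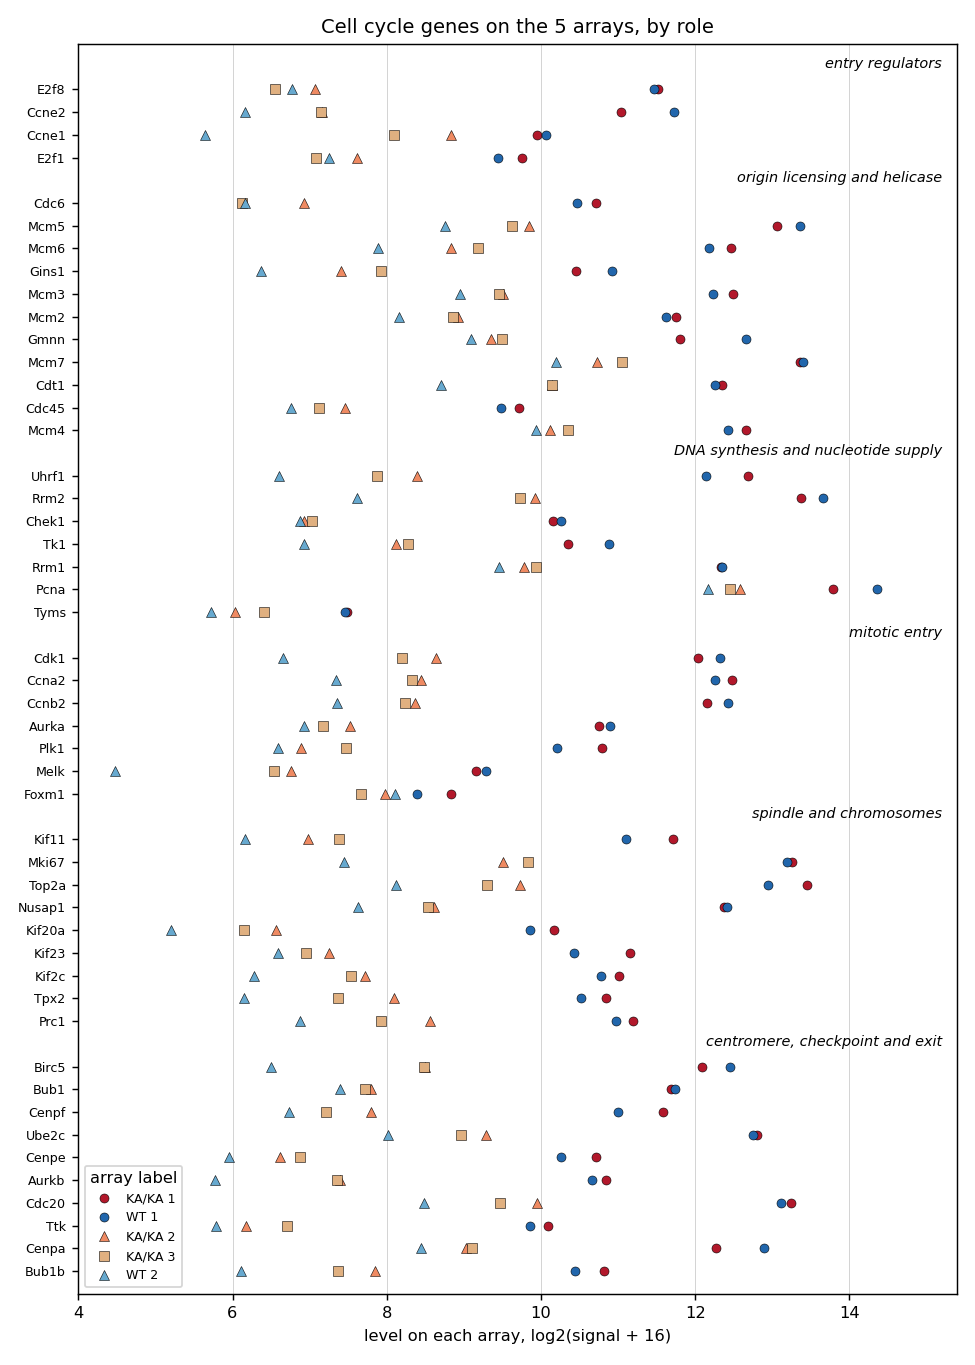
Level of each of the 48 measured members on each of the 5 arrays, as log2(signal + 16), grouped by role and ordered within a role by the difference between the array sets; circles are the marrow-like pair, triangles and squares the lung-like arrays. In every row the circles lie to the right of the other symbols, most narrowly for Foxm1, where the gap is 0.28.

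Among the regulators of S-phase entry, E2f8, an E2F that shuts off its targets late in S phase, read 11.52 and 11.46 on the pair and 7.07, 6.55 and 6.77 on the lung-like arrays. Both marrow-like arrays were at least 4.39 above every lung-like one, the widest gap of all members. E2f1, an activator that opens S phase, read 9.76 and 9.45 against 7.61, 7.08 and 7.25, the smallest difference of this group (2.29). Ccne2 (11.04 and 11.73 against 7.16, 7.14 and 6.16) and Ccne1 (9.95 and 10.06 against 8.83, 8.09 and 5.65) encode the E cyclins that activate Cdk2. They differed in how the lung-like arrays were spread: Ccne1 covered 3.18 there, the widest range of all members, and Ccne2 covered 1.00.

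The helicase that unwinds DNA at origins is a ring of 6 Mcm proteins. Mcm5 had the largest set difference of the 6, at 13.06 and 13.35 against 9.85, 9.62 and 8.75 (3.80, or 13.9-fold). Mcm6 followed, with 12.46 and 12.18 against 8.84, 9.18 and 7.89 (3.69). Both were higher on the pair by more than their range within either set.

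Mcm3 read 12.50 and 12.24 on the pair and 9.51, 9.45 and 8.95 on the lung-like arrays. Mcm2 read 11.75 and 11.62 against 8.93, 8.86 and 8.16. These subunits had nearly the same set difference, 3.07 and 3.04. Mcm7 read 13.36 and 13.40 against 10.73, 11.05 and 10.20. Mcm4 had the smallest difference of the ring (2.41, or 5.31-fold), with 12.66 and 12.43 against 10.12, 10.35 and 9.94. Although subunits of 1 complex, the 6 genes thus spanned 2.41 to 3.80, with a median of 3.05, and WT 2 was the lowest array for each. The place of WT 2 depends on the probe set. It was the highest lung-like array on another probe set of Mcm2 (9.16, 8.36 and 9.20) and of Mcm3 (8.03, 8.11 and 8.19). It stayed the lowest on another of Mcm6 (7.63, 7.77 and 7.05).

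Of the factors that load or start the helicase, Cdc6, an ATPase that loads it, had the largest difference: 10.71 and 10.47 against 6.93, 6.12 and 6.16 (4.19, or 18.2-fold). Its loading partner Cdt1 differed by 2.64, and Gmnn (geminin), the inhibitor of Cdt1, by 2.92. Cdc45 (2.48) and Gins1 (3.45) encode parts of the active helicase. All 11 licensing and helicase genes were at least 4-fold higher on the pair, where the background is 4.53%.

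DNA synthesis and nucleotide supply genes ranged from 1.42 to 4.79. Uhrf1 had the largest set difference of all members, 4.79 or 27.6-fold, with 12.69 and 12.13 against 8.39, 7.88 and 6.60. Rrm2 came close, with 13.37 and 13.66 against 9.92, 9.73 and 7.61 (4.43). The other subunit of the same reductase, Rrm1, differed by 2.61 (6.13-fold).

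Pcna, the sliding clamp that holds DNA polymerase, read 13.79 and 14.36 on the pair and 12.58, 12.45 and 12.16 on the lung-like arrays. Its difference of 1.67 (3.19-fold) was smaller than that of each Mcm gene. The clamp also serves DNA repair. Tyms, which makes thymidylate, had the smallest difference of the group (1.42): 7.49 and 7.45 against 6.03, 6.40 and 5.72. Its probe set was dim, with a mean under the filter level of 7.04, so Tyms entered no fit. A brighter probe set that names Tyms together with its pseudogene read 10.40 and 10.68 against 8.98, 8.31 and 8.10. The thymidine kinase Tk1 differed by 2.84 and the replication checkpoint kinase Chek1 by 3.26. Chek1 was the tightest member on the lung-like arrays, where its values lay within 0.16.

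Mitotic entry genes followed. Cdk1, the kinase that drives it, read 12.03 and 12.32 against 8.63, 8.20 and 6.66 (4.35, or 20.4-fold). Its cyclin partners Ccna2 and Ccnb2 differed by 4.32 and 4.30, so the 3 genes were alike in size. Aurka (3.61) and Plk1 (3.51) encode kinases of centrosomes and spindle assembly, and Melk (3.30) a kinase of dividing and progenitor cells.

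Foxm1, which encodes an activator of these genes, was the exception. It read 8.83 and 8.39 on the pair and 7.97, 7.67 and 8.10 on the lung-like arrays, a difference of 0.70 or 1.62-fold, the smallest of all members. The value depends on the probe set. The probe set of highest mean, which the rule takes, gave 0.70, whereas another named for Foxm1 alone read 8.79 and 8.0 against 4.96, 4.77 and 4.53, a difference of 3.64.

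The spindle and chromosome genes had the highest median difference of any role, 4.04 or 16.5-fold. Kif11 led, with 11.71 and 11.10 against 6.98, 7.39 and 6.16 (4.57, or 23.7-fold). Mki67, which coats mitotic chromosomes and is the common histological marker of cycling cells, read 13.26 and 13.19 against 9.51, 9.83 and 7.45 (4.29). Top2a, the topoisomerase that untangles sister DNA, read 13.46 and 12.94 against 9.73, 9.30 and 8.12 (4.15). On the lung-like arrays, these 3 genes were lowest on WT 2 with the probe sets used. Prc1, which bundles microtubules of the central spindle, had the smallest difference of the group, with 11.19 and 10.98 against 8.56, 7.92 and 6.87 (3.30). The microtubule binder Nusap1 (4.13), the spindle assembly factor Tpx2 (3.48) and the motors Kif20a (4.04), Kif23 (3.86) and Kif2c (3.72) lay between.

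The centromere, checkpoint and exit genes were the most uniform role, from 3.52 to 4.45. Birc5 led, at 12.09 and 12.45 against 8.50, 8.48 and 6.50 (21.8-fold). The checkpoint kinase gene Bub1b was at the low end, at 10.82 and 10.44 against 7.85, 7.37 and 6.11 (11.5-fold). Cdc20, the activator of the anaphase-promoting complex, read 13.24 and 13.12 against 9.95, 9.47 and 8.48 (3.88). Ube2c (4.02) encodes the ubiquitin-conjugating enzyme of the same complex. The centromere genes Cenpa (3.72), Cenpe (4.01) and Cenpf (4.04), the checkpoint kinase genes Bub1 (4.08) and Ttk (3.75), and Aurkb (3.91), the kinase partner of survivin, completed the group.

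Set side by side, the mitosis genes differed more between the array sets than the replication genes, again as a description. The median difference was 3.96 (15.5-fold) over 26 mitosis genes and 2.98 (7.88-fold) over 22 replication genes, and it was 3.05 over the Mcm genes, Pcna and Rrm2. At least 8-fold higher on the pair were 25 of 26 mitosis genes, all but Foxm1, and 11 of 22 replication genes. At least 16-fold higher were 13 and 5. Of the 11392 genes tested, 237 were at least 8-fold and 91 at least 16-fold higher on the pair. The ranges overlapped: Uhrf1, E2f8, Ccne2 and Rrm2 of the replication genes (4.43 to 4.79) lay among the largest differences of all. With the mean over a gene's probe sets in place of the brightest, the medians lay 0.59 apart in place of 0.98.

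**Figure D2:**
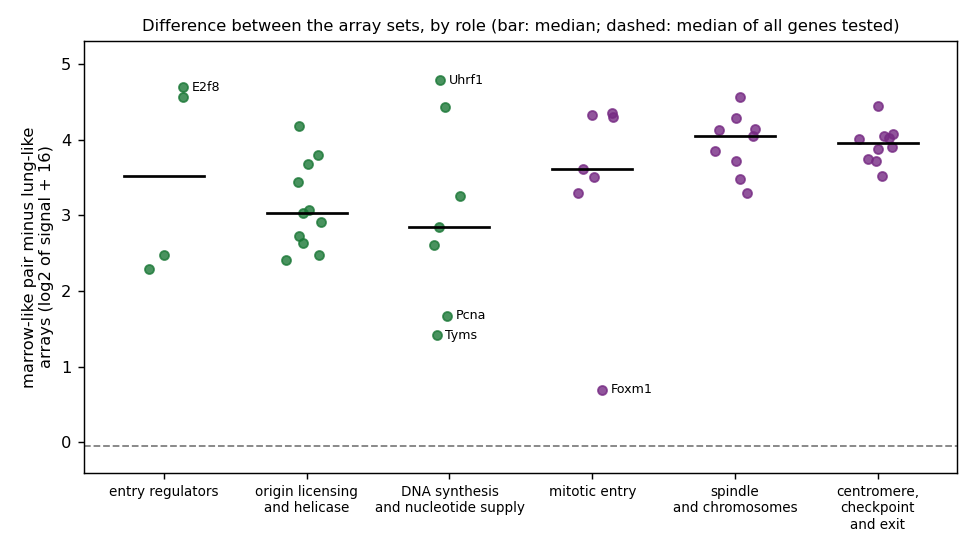
Difference between the array sets (mean of the marrow-like pair minus mean of the lung-like arrays, log2 of signal + 16) for each measured member, by role; green points are replication genes, purple points mitosis genes, bars are role medians, and the dashed line is the median of all genes tested (-0.05). Spindle and centromere genes cluster around their medians of 4.04 and 3.96, whereas DNA synthesis genes run from 1.42 (Tyms) to 4.79 (Uhrf1).

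Members had 64 other probe sets, dim ones included. Of these, 60 were higher on the pair, 53 of them without overlap between the sets, and 4 were lower, such as 1 of Foxm1 (-0.50) and 1 of Top2a (-0.05). Of all genes tested, 30.5% were higher on the pair without overlap. Each gene's own values, centred on their mean over the 5 arrays, gave the same order on every array: the mitosis median was 2.43 and 2.25 on the pair and -1.10, -1.26 and -2.36 on the lung-like arrays, and the replication median was 1.73 and 1.87 against -1.0, -0.99 and -1.80. On the pair the mitosis genes were thus further above, and on each lung-like array further below, their mean than the replication genes. The centred values are those behind the set differences, so this order is not separate support for them.

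Other genes of the same pathways, on lists drawn up by function, were described in the same way. The background is again 30.5% higher on the pair without overlap and 4.53% at least 4-fold higher. Of 30 other replication genes, 29 did not overlap between the sets and 19 were at least 4-fold higher on the pair, with a median difference of 2.22. The largest were Clspn (3.68), a mediator of the replication checkpoint, and Dut (3.38), which removes dUTP. The smallest were the origin recognition subunit Orc1 (0.73), whose arrays overlapped, and the clamp loader subunit Rfc2 (0.98).

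Of 40 other mitosis genes, 39 did not overlap and 35 were at least 4-fold higher, with a median of 3.51. Ect2 (4.75), an activator of the cytokinetic furrow, and the kinetochore gene Spc25 (4.48) were at the top. Bub3 (1.42) of the checkpoint and the motor gene Kif15 (0.84), whose arrays overlapped, were at the bottom.

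The 17 E2F and DREAM regulators had a median of 0.96, and 12 of them were higher on the pair without overlap, beside 30.5% of all genes tested. They ran from Myb (4.65), a transcription factor of blood progenitors, and the activator E2f2 (3.46), to Tfdp2 (-0.13), a dimer partner of E2F, and E2f5 (-0.83), a repressor.

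**Figure D3:**
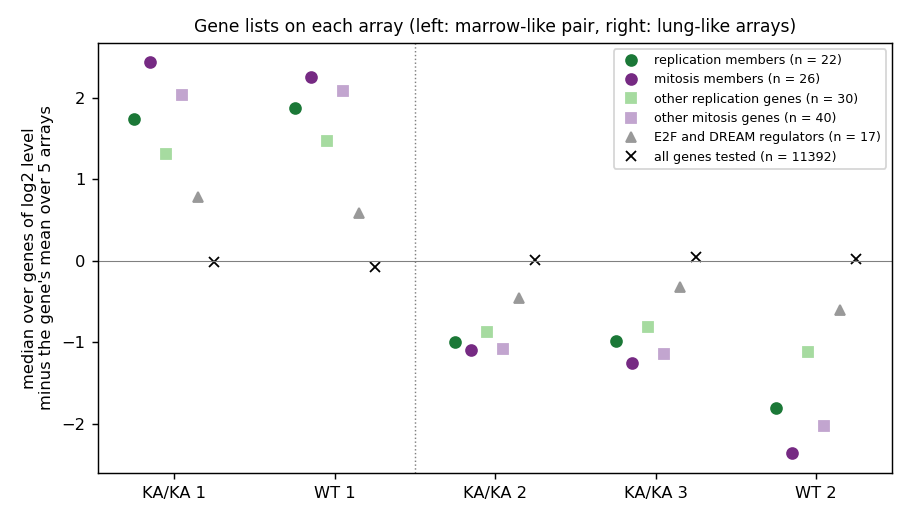
Median, over the genes of a list, of the log2 level on an array minus the gene's mean over the 5 arrays; the marrow-like pair is left of the dotted line and the lung-like arrays are right of it. The mitosis members lie furthest from 0 on every array (2.43 and 2.25, then -1.10, -1.26 and -2.36), while all genes tested stay between -0.08 and 0.05.

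Inside the marrow-like pair, where 1 KA/KA array stands against 1 WT array and there is no replicate, the members differed little. KA/KA 1 was above WT 1 for 29 of 48 members, where the background is 56.8%. None of the 48 was at least 2-fold apart, where the background is 4.41%. The median difference, KA/KA minus WT, was 0.10, beside 0.08 for all genes tested.

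The mitosis genes had a median of 0.22, with 18 of 26 higher on KA/KA 1, and the replication genes a median of 0.01, with 11 of 22 higher. Members with the largest differences were the spindle motors Kif23 (0.72; 11.15 against 10.43) and Kif11 (0.61; 11.71 against 11.10) and the kinase gene Plk1 (0.58; 10.79 against 10.20). Lowest on KA/KA 1 were Gmnn (-0.85; 11.81 against 12.65), Ccne2 (-0.69; 11.04 against 11.73) and the centromeric histone gene Cenpa (-0.63; 12.27 against 12.90). After quantile normalisation, 35 of 48 were higher. Among the members kept by a stricter filter on mean level the median was 0.02.

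Inside the lung-like arrays, both KA/KA arrays were above WT 2 for 44 of 48 members, where the background is 33.4%. Both were at least 2-fold above it for 16 of 48, where the background is 3.83%. The median difference was 0.97 (1.95-fold), with 0.99 for KA/KA 2 and 0.92 for KA/KA 3, beside -0.03 for all genes tested. It was larger for mitosis genes, at 1.08 with 25 of 26 above, than for replication genes, at 0.61 with 19 of 22 above. WT has 1 array here, so this is a comparison of KA/KA 2 and KA/KA 3 with the array labelled WT 2, not of genotypes with their own spread. The background is also of brighter genes. On WT 2, 26 of 48 members lay below the array's median, beside 587 of the 11392 genes tested. The median percentile there was 46.1 for the members and 80.6 for all genes tested.

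Ccne1 had the largest difference. Its values were 8.83 and 8.09 on the KA/KA arrays and 5.65 on WT 2, 2.81 apart. Mki67 (9.51 and 9.83 against 7.45) and Rrm2 (9.92 and 9.73 against 7.61) were each 2.22 apart, with no overlap. Other probe sets of 2 of these genes gave less: 1.29 for Ccne1, and 1.09 and 1.28 for Rrm2. Mki67 has 1 probe set.

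At the other end, Foxm1 (7.97 and 7.67 against 8.10) was, on the probe set used, the only member lower on both KA/KA arrays (-0.29). Other probe sets named for Foxm1 alone did not share this. They read 4.96 and 4.77 against 4.53, 6.99 and 7.04 against 6.83, and 5.18 and 4.50 against 4.92. E2f8 (7.07 and 6.55 against 6.77, mean difference 0.04), E2f1 (7.61 and 7.08 against 7.25, 0.09) and Cdc6 (6.93 and 6.12 against 6.16, 0.37) were each higher on KA/KA 2 and lower on KA/KA 3. KA/KA 3 was above KA/KA 2 for 15 of 48 members, with a median difference of -0.13 between them.

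The size of this difference depends on how a gene's probe sets are used. With the mean over all probe sets of a gene the median was 0.51, both KA/KA arrays were higher for 41 of 48 members, and both were at least 2-fold above WT 2 for 10. With a pseudocount of 64 that last count was 9, and without probe sets shared between transcripts it was 9 of 42. Of the 64 other probe sets of members, 33 were higher on both KA/KA arrays, beside 33.4% of all genes tested.

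The pathway lists followed the members' phases in size. Of 40 other mitosis genes, 32 were higher on both KA/KA arrays than on WT 2, with a median of 0.77. Of 30 other replication genes, 16 were, with a median of 0.22, and of 17 E2F and DREAM regulators 8 were, with a median of 0.09. Over all genes tested the share was 33.4%.

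**Figure D4:**
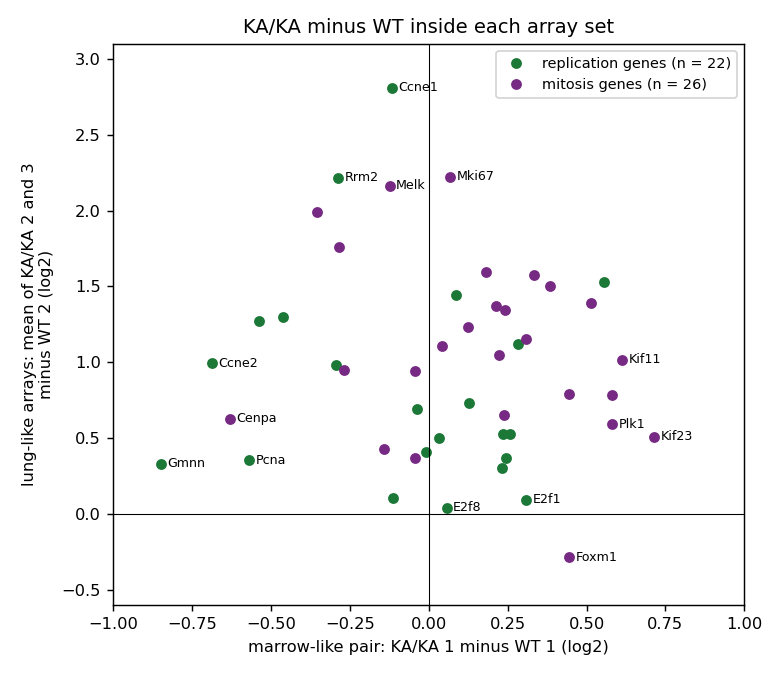
KA/KA minus WT for each measured member, in the marrow-like pair (horizontal axis, 1 array against 1) and in the lung-like arrays (vertical axis, mean of KA/KA 2 and KA/KA 3 minus WT 2), both in log2 of signal + 16; green points are replication genes and purple points mitosis genes. Horizontally the points run from -0.85 (Gmnn) to 0.72 (Kif23) on both sides of 0, and vertically all but Foxm1 (-0.29) lie above 0, up to 2.81 (Ccne1). The place of Foxm1 depends on the probe set.

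Markers of other cells also differed between the lung-like arrays. Summed macrophage signal (7 genes) was 52092 and 28693 on the KA/KA arrays and 11979 on WT 2, and 7 of 7 genes were higher on both. Summed T cell signal (6 genes) was 3696 and 8777 against 1868, with 5 of 6 higher on both. Neutrophil precursor genes summed to 17676 and 40704 against 4385, with 4 of 8 higher on both. B lineage genes summed to 15826 and 18806 against 11805, with 4 of 11 higher on both. The background of such genes is 33.4%. S100a8 made the largest part of each of these neutrophil precursor sums. Cd24a (13.46 and 13.61 against 13.16) made the largest part of each B lineage sum. Of the 8 neutrophil precursor genes, 4 were above WT 2 on KA/KA 2 and 7 on KA/KA 3. Ltf was lower on both (10.25 and 9.27 against 10.795). Erythroblast genes summed to 2340 and 1753 against 3913.

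Lung epithelial genes, whose sums are given above, were higher on both KA/KA arrays for 6 of 12. Heart muscle genes summed to 1189 and 8787 on the KA/KA arrays and 42842 on WT 2, and endothelial genes to 7525 and 25652 against 34747, with none of 5 and none of 6 higher on both. Smooth muscle genes summed to 19623 and 15953 against 23733. The part of these cells in the members' difference was not tested. On the marrow-like pair the B lineage and neutrophil precursor sums were lower on KA/KA 1 than on WT 1, with 94892 and 147309 for the latter list.

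Over all 5 arrays, 3 KA/KA against 2 WT, no member was called. limma with Benjamini-Hochberg adjustment over all 11392 genes gave 0 of 47 members at an adjusted p under 0.05, where the background is 0.0%, and every adjusted p of a member was 1.0. At an unadjusted p under 0.05 there were also 0 of 47 members, and 25 genes in all. The median difference over the members was -0.04, with 21 of 48 higher in KA/KA. In 0 of 48 were all KA/KA arrays above both WT arrays, where the background is 4.12%, and in 0 of 48 all below, where it is 2.66%. Both counts were fixed in advance, because no member's array sets overlapped and each set holds both genotypes. They say nothing about genotype.

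The members of smallest p had standard errors larger than their differences. Ccne1 differed by 1.10 ± 1.44 (SE), Gmnn by -0.66 ± 1.34, Pcna by -0.32 ± 0.80, Melk by 0.60 ± 1.69 and Chek1 by -0.53 ± 1.5. An exact permutation test of 3 arrays against 2 cannot go below p = 0.10. Each group holds arrays of both sets, and the members' set difference of 3.72 enters the spread. In simulated data this fit called 0% of genes changed by a log2 of 4. The lack of calls therefore does not show that the genotypes are alike. The members' median was 2.16 without WT 1 and -2.17 without WT 2. It was -1.05 without KA/KA 1, 0.54 without KA/KA 2 and 0.49 without KA/KA 3.

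With the array set as a block in limma's fit, the median difference was 0.59 and 45 of 47 members were higher in KA/KA. None was called (smallest adjusted p = 0.999). At an unadjusted p under 0.05 were 7 of 47, all higher, where the background is 2.73%. They were Top2a (1.01 ± 0.31), Uhrf1 (1.11 ± 0.34), Mki67 (1.30 ± 0.50), Kif11 (0.84 ± 0.31), Bub1b (1.02 ± 0.38), Mcm6 (0.76 ± 0.30) and Tpx2 (1.04 ± 0.42).

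limma on the lung-like arrays alone kept 33 members, with the filter and each gene's probe set chosen anew on those arrays. Mcm2 was thus fitted at -0.44 and Ccna2 at 1.47, where the probe sets described above gave 0.73 and 1.05. Of these, 15 had an unadjusted p under 0.05, all higher in KA/KA, where the background is 6.43%. The test of whether the genotype difference itself differed between the array sets called none of 47 members in limma's fit (smallest adjusted p = 0.754). At an unadjusted p under 0.05 were 12 of 47, where the background is 5.78%. Neither fit has more than 1 WT array in a set, so the spread of WT inside a set was not measured. In both fits a gene's own spread comes only from the difference between the lung-like KA/KA arrays. Both also use the same lung-like WT array, so their counts are not separate support for each other.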

How the data were processed

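The values deposited by the authors are intensities, 45101 per array for 5 arrays in 1 table. The submitters' processing notes name MAS5, with no version. The series text speaks of a log2 transformation, but the deposited values were linear, with a mean of 500.0 after trimming 2% from each end, and were used as intensities. log2(signal + 16) was then computed.

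Probe sets were named by the platform annotation: 34945 have 1 symbol, 932 several and 9160 none. Each gene took its named probe set of highest mean. The 11392 genes with a mean at or above the median of all probe sets (7.04) were fitted with limma 3.58.1 in R 4.3.3 (lmFit, eBayes with intensity trend, two-sided, Benjamini-Hochberg, threshold 0.05). Of the members, 47 passed this filter; counts between array sets use all 48 measured. Arrays fell into sets at a median log2 poly-A control signal of 10, and groups follow the labels. Promoter words were searched in Python 3.11.15.

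The members, the lists and the tests were chosen with earlier results of these data known. Values of every array are given for the Mcm genes, Pcna, Rrm2, Mki67, Top2a, Cdk1, Cdc20, E2f1, Foxm1 and the members of largest and smallest set difference in a role; for genotype, the 5 of smallest p and the 3 largest and smallest differences inside each set; of the other lists, the 2 largest and 2 smallest. limma's fit was tested on simulated data, with genes changed in KA/KA by a log2 of 1, 2 or 4 and the same noise for all genes. Over the 5 arrays without a block it called 0% of them at each size. With the array-set block it called 45.6%, 100% and 100%. Alternatives were other normalisations, pseudocounts of 1 and 64, filters, uses of probe sets, moderation, array weights, blocks and leaving out each array. Detection calls, and the transcript of the mutated gene, were not used here. The number of arrays limits the precision.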

Additional observations from a re-analysis of the deposited data

Results flagged for a closer look

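Between the array sets, 3 roles differed in the sign of the median KA/KA minus WT, a difference that was not tested by role. On the pair, 1 array against 1, the members of these roles lay on both sides of 0. Lower on KA/KA 1 were 2 of 4 entry regulators, 5 of 7 DNA synthesis genes and 4 of 7 mitotic entry genes. Over all genes tested, 56.8% were higher on KA/KA 1. For the entry regulators the median was -0.031 on the marrow-like pair and 0.68 (KA/KA 2) and 0.41 (KA/KA 3) on the lung-like arrays. DNA synthesis and nucleotide supply genes had -0.113 against 0.42 and 0.69, and mitotic entry genes -0.124 against 1.01 and 0.89. For single members, limma's test of the difference between the sets called none of 47.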

How the results depend on the processing

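Under quantile normalisation, median centring and pseudocounts of 1 and 64, all 48 members stayed higher on the marrow-like pair without overlap, and 44 stayed higher on both KA/KA arrays than on WT 2. Median centring moved the all-gene median of the set difference from -0.05 to 0.29. The replication median of 2.98 ranged from 2.66 to 3.33. The mitosis median of 3.96 was 3.25 with the mean of probe sets. Mitosis minus replication, 0.98, was 0.67 with a pseudocount of 64, 0.59 with the mean of probe sets, and 0.77 to 1.36 when arrays were left out. The median inside the lung-like arrays, 0.97, was 0.68 with a pseudocount of 64, 0.51 with the mean of probe sets and 0.69 without shared probe sets. Inside the marrow-like pair it was 0.10, and 0.017 with a filter that keeps the brightest 25% of probe sets.

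No member was called by limma under any of 19 alternatives. The median over 5 arrays, -0.04, ran from -2.17 to 2.16 when arrays were left out. Leaving out arrays gave Ccne1 -1.11 to 3.31, Gmnn -2.44 to 1.13, Pcna -1.42 to 0.78, Melk -1.80 to 1.08 and Chek1 -2.23 to 1.16. Melk fell under the filter without KA/KA 1 and without WT 1, so its range does not cover those settings. Chek1 turned to 0.013 with the array-set block, and Melk to -0.15 with array weights; the cause was not tested.

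The label numbers 1 and 2 occur in both genotypes, and the deviations of same-numbered arrays correlated at 0.88 and 0.65 across genes. With only 2 such pairs they are not taken as pairing. With the replicate block 0 members were called, and the median was 0.51.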
